A study of Mus musculus with 12 samples.

Results

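The genes of cholesterol and fatty acid synthesis were followed through the exit of mouse embryonic stem cells (ESCs) from the naive state. The group was a fixed list of 35 genes known as targets or parts of the SREBP system. It was taken by symbol, but chosen with earlier results of these data known. All 35 were found among the 35580 genes to which the deposited transcripts were assigned. They comprised 7 genes of the mevalonate steps, 11 of the squalene and sterol steps, 6 of regulation and transport, and 11 of fatty acid synthesis, elongation and desaturation.

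mRNA was sequenced from R1 mESC, a mouse ESC line, that were either Wild type (WT) or Cidea -/- (KO), with 2 libraries per group and 12 in all. At 0 h both genotypes were ESCs kept in serum with LIF, the cytokine that sustains naive pluripotency. At 24 h and 48 h both had been grown as 3D spheroids in growth factor-reduced Matrigel, in a higher share of serum and without LIF, a model of the epiblast around implantation. *Cidea* encodes a protein of the lipid droplet surface that drives the fusion of droplets, and all KO libraries came from 1 CRISPR clone. A difference between the genotypes therefore cannot be told apart from other differences of that clone. Likewise, time in culture cannot be told apart from the change of medium, matrix and cell collection at 0 h.

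Cholesterol is built from acetyl-CoA through mevalonate, isoprenoid units, squalene and a series of sterol intermediates. The SREBP transcription factors, encoded by *Srebf1* and *Srebf2*, are held in the endoplasmic reticulum by SCAP and the INSIG proteins when sterols are plentiful, and are cut and released to the nucleus when sterols fall. SREBP-2 acts mostly on genes of sterol synthesis and SREBP-1 mostly on those of fatty acids, and in proliferating cells both pathways feed new membrane.

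The libraries held 28998188 to 38509860 estimated counts each. Levels are given as TPM, the abundance of transcripts corrected for their length and scaled to the same total in every library. *Cidea* stood at 4.07 and 3.17 TPM in WT ESCs, at 5.06 and 1.88 in WT spheroids at 24 h and at 0.974 and 0.836 at 48 h, and was listed at 0 in all 6 KO libraries. One library stood apart: KO 24 h replicate 1 detected 15473 genes at equal depth, against 17635 to 19672 in the other 11 libraries. All 5 markers of pluripotency (*Pou5f1*, *Sox2*, *Nanog*, *Zfp42*, *Esrrb*) fell and all 4 primed-state markers (*Fgf5*, *Otx2*, *Dnmt3b*, *Pou3f1*) rose between 0 h and 48 h in both genotypes. The 8 markers of primitive and visceral endoderm summed to 5.32 to 10.9 TPM in the 12 libraries, with 1 of them at 0 throughout and 4 below 1 TPM in every library. *Dab2*, one of the 8, rose by 1.81 (WT) and 2.03 (KO) on the log2 scale by 48 h. Of the 5 endoderm markers tested, 2 changed upward in WT and 3 in KO, with 1 called higher and 0 lower in each. The means of *Gata4*, *Gata6* and *Sox17* fell in both genotypes, those of *Gata4* from 3.16 to 1.71 TPM in WT and 3.17 to 2.09 in KO. The summed TPM of 4 mesendoderm markers went from 4.77 to 6.67 at 0 h to 11.3 to 13.5 at 48 h, with *Eomes* called higher by 1.39 and 1.52. The sum of 4 trophectoderm markers went from 14.1 to 23.5 TPM at 0 h to 6.54 to 9.20 at 48 h. This fall was that of *Tfap2c*, whose means went from 21.5 to 4.96 TPM in WT and from 13.3 to 4.65 in KO. The means of *Cdx2*, *Elf5* and *Hand1* rose in both genotypes, to at most 1.88 TPM. The 2 neural and 4 fibroblast markers summed to at most 16.35 and 29.1 TPM. The part of these in the changes below was not tested. Fewer cells of a type and less RNA per cell cannot be told apart in such bulk samples.

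The 35 genes together summed to 1795 ± 36.5 TPM in WT ESCs, and by 48 h the WT sum was 2113 ± 64.9 (SD, n = 2 each), a rise of 17.7%. In KO cells the sum went from 1835 ± 11.02 to 2132 ± 63.7 TPM, a rise of 16.2%. The 2 libraries of a group did not overlap with those of the other time in either genotype. Levels spanned a wide range, with *Acly* (ATP citrate lyase, which makes cytosolic acetyl-CoA) the highest at a mean of 299.5 TPM over the 12 libraries and *Hsd17b7*, a ketoreductase of sterol synthesis, the lowest at 6.99 TPM. *Fasn* (fatty acid synthase) at 205.5, *Scd2* (a stearoyl-CoA desaturase) at 161.5 and *Fdps* (farnesyl diphosphate synthase) at 135.6 TPM were the other members above 100 TPM.

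To ask which of these genes changed along differentiation, counts summed per gene were compared between times in one model of all 12 libraries (edgeR's quasi-likelihood test, adjusted p under 0.05 over 17424 genes by the Benjamini-Hochberg method). All 35 genes passed the filter on low counts. From 0 h to 48 h, 16 of 35 rose and 4 fell in WT, while 11.1% of all genes tested rose and 12.5% fell. In KO cells 17 rose and 3 fell, beside 12.1% and 12.8% of all genes. The median log2 fold change of the 35 genes was 0.33 in WT and 0.26 in KO, against 0.02 and 0.01 over all genes. Of the genes that rose, 12 did so in both genotypes, which was 75.0% of the WT calls and 70.6% of the KO calls, and 3 of the genes that fell were shared. Across the 35 genes the WT and KO changes, which come from separate libraries, had the same sign for 29 and a Pearson's r of 0.90 (Spearman's rho 0.82). The matching overlap and correlation over all genes were not computed, so whether this likeness is particular to the 35 genes was not tested. Only 7 genes kept their call in both genotypes under each of the 16 alternative settings tried: *Hmgcs1*, *Idi1*, *Fdps*, *Sqle*, *Fasn* and *Fads2*, which rose, and *Scd2*, which fell.

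**Figure D1:**
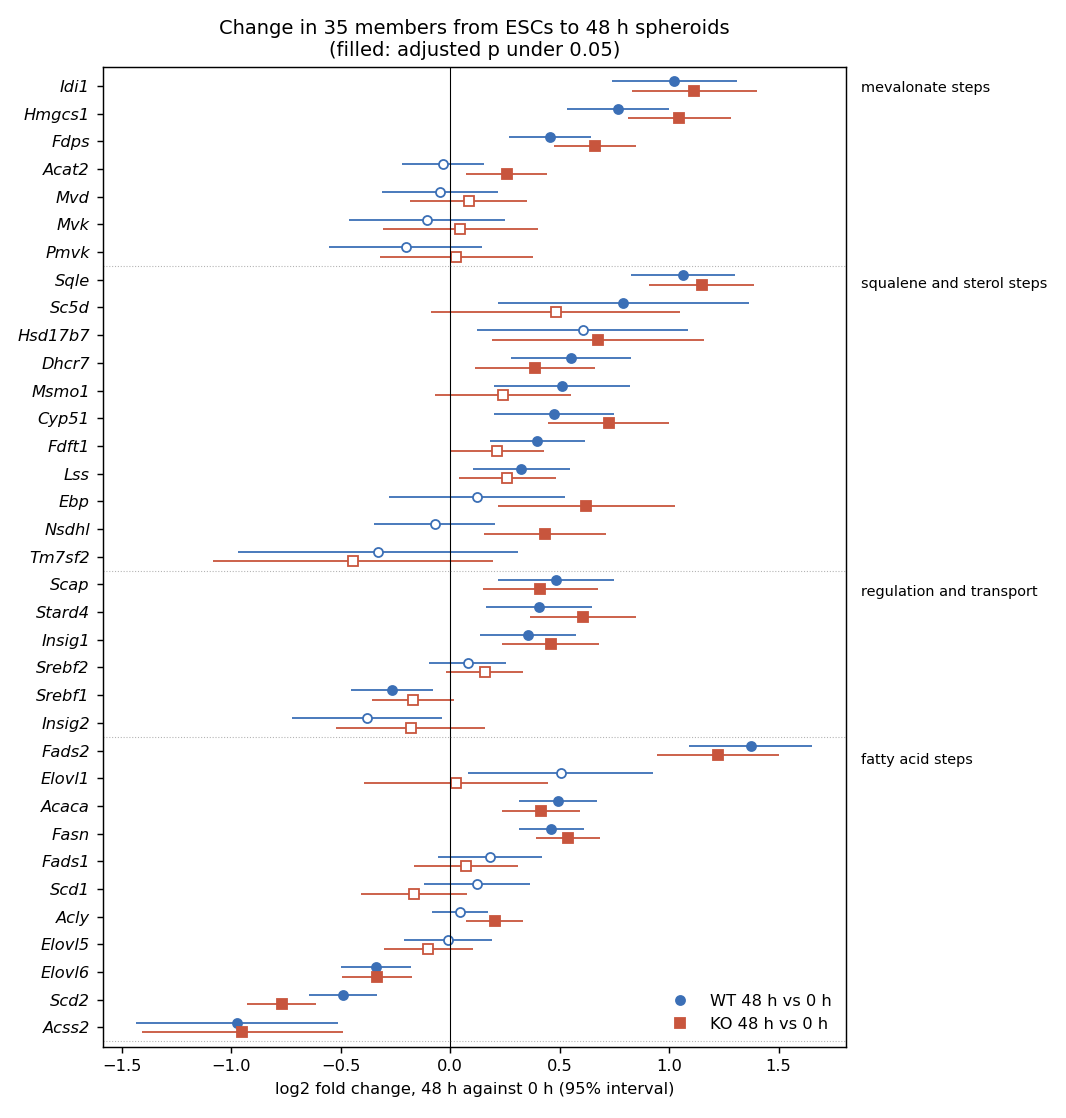
Log2 fold change of each of the 35 genes between 0 h and 48 h (x axis) with its 95% interval, for WT (blue circles) and KO (red squares), ordered within class by the WT value. Filled symbols mark an adjusted p under 0.05. *Fads2* lies farthest right in both genotypes and *Acss2* farthest left.

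Genes were called on both days. Between 0 h and 24 h, 4 genes rose and 3 fell in WT (7.54% and 7.47% of all genes) and 8 rose and 4 fell in KO (9.23% and 9.33%). Between 24 h and 48 h, 8 rose and 2 fell in WT (3.28% and 4.86%) and 11 rose and 1 fell in KO (4.57% and 5.37%). Without KO 24 h replicate 1 the KO counts were 9 higher and 2 lower on the first day and 9 higher and 1 lower on the second. The KO calls of *Idi1* on both days, of *Lss*, *Scd1* and *Srebf1* on the first and of *Scap* and *Acaca* on the second were lost without that library. Whether more genes were called on the first or the second day turned with the scale. There were 5 then 2 in WT and 9 then 6 in KO with transcript lengths as offsets. The shares of all genes called were 7.57% then 3.24% in WT and 10.2% then 4.72% in KO. With limma on log2(TPM + 1) there were 5 then 1 and 7 then 1, beside 7.82% then 2.73% and 9.28% then 4.51% of all genes. With the leading transcript only there were 5 then 4 and 6 then 4, beside 5.59% then 2.02% and 7.32% then 2.84% of all genes. On the first day 3 calls in WT and 4 in KO held under each of 16 settings, and on the second day 1 and 0.

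In the mevalonate class, 3 of 7 genes rose in WT and 4 of 7 in KO by 48 h, and none fell. *Hmgcs1*, the cytosolic HMG-CoA synthase, stood at 155 and 181 CPM (counts scaled to library size by the TMM method) in WT ESCs, 177 and 207 at 24 h and 287 and 286 at 48 h. In KO cells its CPM values were 138 and 151, then 171 and 202, then 326 and 270. Both 48 h libraries lay above all earlier ones in each genotype, a rise of 1.70-fold in WT (log2 fold change 0.77, SE 0.11, adjusted p = 5.99e-05, edgeR) and 2.07-fold in KO (1.05, SE 0.11, adjusted p = 1.85e-06).

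*Idi1*, which isomerises isopentenyl diphosphate, was at 77.3 and 74.2 CPM in WT ESCs, 75.0 and 106.9 at 24 h and 166.5 and 141.7 at 48 h. Its KO values were 68.7 and 70.7 CPM, 102.3 and 98.3, and 161.5 and 140.0. Of the WT libraries at 24 h, 1 lay at the level of 0 h and 1 above both KO libraries of that time. In KO cells both 24 h libraries lay above 0 h, a rise whose call was lost in 4 of 16 alternatives. The difference between the genotypes in the change by 24 h was not called. By 48 h the rise was 2.03-fold in WT (adjusted p = 2.83e-05, edgeR) and 2.17-fold in KO (adjusted p = 1.05e-05, edgeR).

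*Fdps*, whose product is the branch point to sterols and prenyl groups, was the most abundant of this class. It rose from 85.4 and 90.9 CPM to 125.9 and 116.4 in WT and from 78.2 and 82.8 to 134.4 and 120.2 CPM in KO. These changes were 1.37-fold (adjusted p = 0.000695) and 1.58-fold (adjusted p = 1.13e-05, edgeR). *Mvk*, the mevalonate kinase and the least abundant of the class, stayed between 16.2 and 23.1 CPM in all 12 libraries and was not called. *Pmvk* and *Mvd*, which act on either side of mevalonate diphosphate, were not called either, so the calls fell on 3 of the 7 enzymes in both genotypes. *Acat2*, an acetyl-CoA acetyltransferase, was called in KO alone, at a log2 fold change of 0.26 against -0.03 in WT, and this difference did not pass its own test. Its reads may be split with the close copy *Acat3*.

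**Figure D2:**
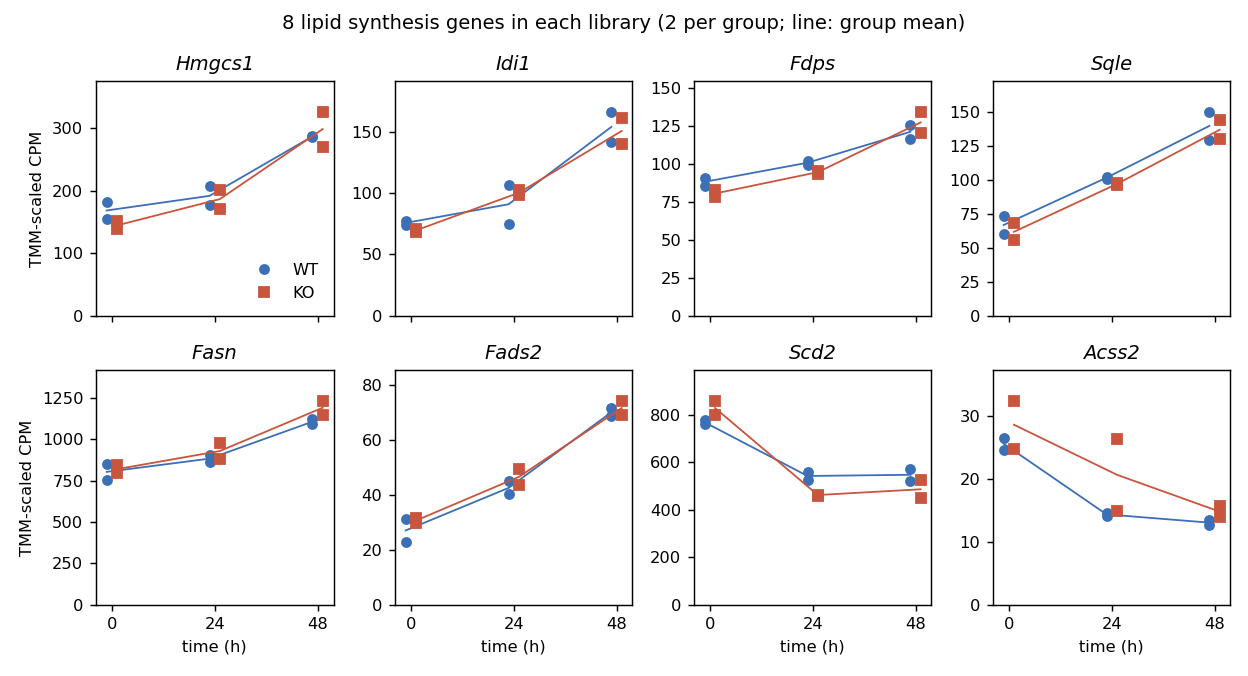
TMM-scaled CPM (y axis) of 8 genes against time in h (x axis) for each WT (blue circles) and KO (red squares) library, with lines through group means. The 6 genes that kept their rise under every setting climb in both genotypes, whereas *Scd2* drops by 24 h and then stays low, and *Acss2* differs between the 2 KO libraries at 24 h.

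Of the 11 genes of the squalene and sterol steps, 7 rose in WT and 6 in KO, and none fell by 48 h. *Sqle*, squalene epoxidase, a rate-limiting step of the pathway, was higher at each later time. It was measured at 60.3 and 73.5 CPM in WT ESCs, 101.1 and 102.4 at 24 h and 150.5 and 129.4 at 48 h, and at 55.6 and 68.1, 97.7 and 96.5, and 144.0 and 130.2 CPM in KO. No library of one time overlapped with another time in either genotype. *Sqle* rose 2.09-fold in WT (adjusted p = 6.43e-07, edgeR) and 2.22-fold in KO (adjusted p = 1.96e-07, edgeR), and was called between 0 h and 24 h as well, with log2 changes of 0.61 (WT) and 0.65 (KO).

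*Cyp51* (lanosterol demethylase) and *Dhcr7*, which makes cholesterol from its last precursor in one branch, rose in both genotypes. *Cyp51* went from 37.1 and 49.9 CPM to 57.4 and 63.5 in WT and from 38.1 and 38.7 to 65.1 and 61.7 CPM in KO. *Dhcr7* went from 33.7 and 33.5 CPM to 51.5 and 47.0 in WT and from 36.1 and 33.0 to 42.5 and 47.9 CPM in KO. *Fdft1* (squalene synthase), *Lss* (lanosterol synthase), *Msmo1* and *Sc5d* were called in WT alone, and *Nsdhl*, *Hsd17b7* and *Ebp* in KO alone. None of these 7 genes was called for a difference between the genotypes in its change. The largest such difference was for *Nsdhl*, a sterol dehydrogenase, at 0.50 (95% interval 0.11 to 0.90, adjusted p = 0.681, edgeR). *Tm7sf2*, a sterol reductase, ranged from 7.3 to 14.6 CPM and was not called. Its 0 h and 48 h libraries overlapped in WT, and in KO they were at 12.55 and 11.7 against 9.96 and 7.87 CPM.

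*Ebp*, the sterol isomerase, followed another course, with its highest values at 24 h. Its CPM values were 18.5 and 13.3 at 0 h, 29.7 and 29.2 at 24 h and 14.9 and 19.7 at 48 h in WT, and 16.2 and 12.8, 29.9 and 30.0, and 21.0 and 23.7 in KO. It rose on the first day in both genotypes, by 0.89 in WT (adjusted p = 0.00282) and 1.05 in KO (adjusted p = 0.000557, edgeR). It fell by 0.77 on the second day in WT (adjusted p = 0.0149, edgeR), a call lost in 6 of 16 alternatives. *Lss* showed the reverse order in counts, with 57.5 and 65.1 CPM at 24 h in WT against 75.3 and 67.2 at 0 h and 96.8 and 81.9 at 48 h, and with 58.9 and 61.7 CPM at 24 h in KO against 75.8 and 73.8 at 0 h and 90.9 and 88.4 at 48 h. Its rise on the second day was called in both genotypes and its fall on the first in KO alone. On the per-length scale the WT order differed, with 28.1 and 25.6 TPM at 0 h, 37.5 and 31.8 at 24 h and 33.3 and 37.3 at 48 h, beside 29.8 and 30.7, 22.9 and 19.4, and 28.3 and 30.8 TPM in KO. With transcript lengths as offsets *Lss* was the 1 member called between KO and WT at 24 h (log2 fold change -0.74, adjusted p = 0.0385, edgeR), against -0.02 in counts. The 352-base processed transcript *Lss-202* was at 20.5 and 8.01 TPM in WT at 24 h and 5.06 and 0 in KO. It held 2.96% of the *Lss* counts in WT at 24 h. The full-length *Lss-201* was at 14.9 and 16.4 TPM in WT and 14.8 and 15.7 in KO. The part of *Lss-202* in this call was not tested.

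**Figure D3:**
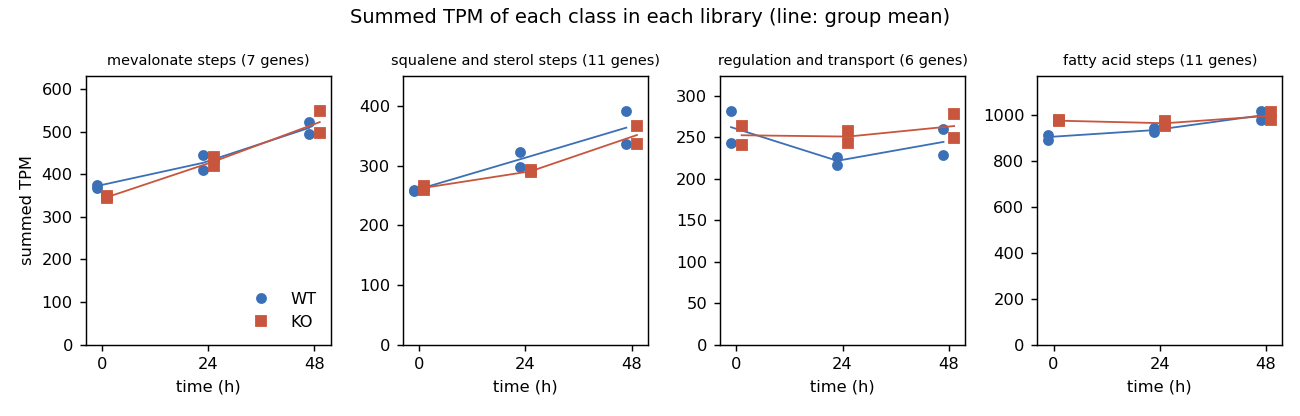
Summed TPM (y axis, from 0) of each class against time in h (x axis) in every WT (blue circles) and KO (red squares) library, with lines through group means. The mevalonate and the squalene and sterol sums climb in both genotypes, and the sums of the 6 regulation and transport genes overlap between 0 h and 48 h, with both WT libraries at 24 h below those at 0 h.

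Summed per length, the 7 mevalonate genes went from 372 ± 4.77 to 509 ± 19.0 TPM in WT (36.7% higher) and from 346 ± 4.41 to 522 ± 37.0 in KO (50.8% higher; SD, n = 2 each). The 11 squalene and sterol genes went from 258 ± 1.60 to 364 ± 39.7 TPM in WT and from 263 ± 5.13 to 351 ± 22.3 in KO. The fatty acid genes, the largest class by TPM, changed by 10.3% in WT, from 903 ± 15.3 to 996 ± 27.9 TPM. In KO they went from 974 ± 4.0 to 995 ± 24.0 TPM, where the lower 48 h library (978 TPM) lay just above the higher 0 h library (976 TPM). For a single sum, 2 libraries against 2 cannot give a p below 0.33 in an exact permutation test, so these sums are given as values.

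Of the 6 regulation and transport genes, 3 rose and 1 fell by 48 h in WT, and 3 rose and 0 fell in KO. *Srebf2* was at 198.7 and 185.8 CPM in WT ESCs, 196.2 and 184.9 at 24 h and 210.3 and 196.1 at 48 h, and at 187.6 and 193.7, 213.6 and 182.1, and 202.8 and 222.5 CPM in KO. It was called in no comparison, and its change to 48 h was 0.08 in WT (95% interval -0.10 to 0.25) and 0.16 in KO (-0.02 to 0.33). *Insig1*, which retains SCAP and is itself an SREBP target, rose from 52.7 and 55.7 to 66.3 and 72.4 CPM in WT and from 49.5 and 48.6 to 70.9 and 64.0 in KO. These rises of 1.28-fold (adjusted p = 0.0178) and 1.38-fold (adjusted p = 0.00274, edgeR) were smaller than those of *Hmgcs1*, *Idi1* and *Sqle*. *Insig2*, the second INSIG gene, ranged from 16.8 to 25.7 CPM in all libraries and was not called.

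*Stard4*, a carrier of sterol between membranes and the least abundant of the class in TPM, rose from 34.2 and 37.5 CPM to 48.0 and 47.1 in WT and from 37.4 and 34.5 to 59.0 and 50.5 in KO. *Scap*, the sterol sensor and escort of the SREBPs, was called higher at 48 h in both genotypes, by 0.48 and 0.41. In WT this direction turned with the scale: the log2 fold change was -0.11 with transcript lengths as offsets. The short intron-retaining transcript *Scap-202* held 22.7 TPM in 1 WT ESC library and 4.52 in the other. The full-length *Scap-201* stood at 12.6 and 12.3 TPM in WT ESCs and 17.8 and 18.8 at 48 h, and at 17.1 and 15.4 then 20.5 and 22.4 TPM in KO.

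*Srebf1* was the only regulator called lower, at 131 and 132 CPM in WT ESCs, 109.6 and 98.7 at 24 h and 107 and 111 at 48 h. In KO its CPM values were 136.0 and 141.2, 111.7 and 112.4, and 113.7 and 132.9. It fell by 0.33 by 24 h in WT (adjusted p = 0.0144) and by 0.31 in KO (adjusted p = 0.0202, edgeR), and by 0.27 by 48 h in WT (adjusted p = 0.0359, edgeR). This gene is transcribed from alternative starts that give the SREBP-1a and SREBP-1c proteins, which differ in their first residues. Starts of 2 coding transcripts lie 10139 bases apart on chromosome 11 (GRCm38, minus strand; transcripts of GENCODE M21). Their first coding exons are shown with capitals for the bases each has alone and lower case for the first 30 bases of the shared second exon, at chr11:60206838-60207257.
*Srebf1-201*, first coding exon chr11:60220453-60220543: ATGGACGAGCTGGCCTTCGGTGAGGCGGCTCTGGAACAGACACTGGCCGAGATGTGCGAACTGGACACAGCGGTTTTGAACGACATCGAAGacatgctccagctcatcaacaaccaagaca
*Srebf1-207*, first coding exon chr11:60210336-60210354: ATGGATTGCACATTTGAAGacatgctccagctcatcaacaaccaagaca

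The transcript from the upstream start, *Srebf1-201*, with 91 coding bases of its own in its first exon, was at 24.8 and 30.2 TPM in WT ESCs, 24.5 and 22.1 at 24 h and 29.7 and 25.9 at 48 h. In KO its TPM values were 26.2 and 28.4, 30.4 and 26.8, and 23.7 and 27.8. The 0 h and 48 h libraries overlapped in both genotypes, while in WT both 24 h libraries lay below those of the other times. *Srebf1-207*, from the downstream start and with 19 such bases, was at 16.0 and 13.5 TPM in WT ESCs, 14.9 and 8.18 at 24 h and 8.13 and 7.73 at 48 h, and at 17.4 and 17.5, 6.06 and 13.1, and 10.4 and 7.44 TPM in KO. Its 48 h libraries lay below its 0 h libraries in both genotypes. With only the leading transcript of each gene counted, the WT change of *Srebf1* to 48 h was 0.02 (adjusted p = 0.980, edgeR), and the fall was no longer called with protein-coding transcripts only. The shorter processed transcripts *Srebf1-204* and *Srebf1-210* were also lower at 48 h in WT, from 17.9 and 12.7 to 1.61 and 7.54 TPM and from 11.5 and 9.83 to 2.40 and 5.44 TPM. In KO their 0 h and 48 h libraries overlapped, at 3.41 and 6.37 against 1.96 and 11.7 TPM and at 14.55 and 5.87 against 11.01 and 5.06 TPM. Transcripts of one gene share most of their sequence, so their separate levels are less certain than the gene's.

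**Figure D4:**
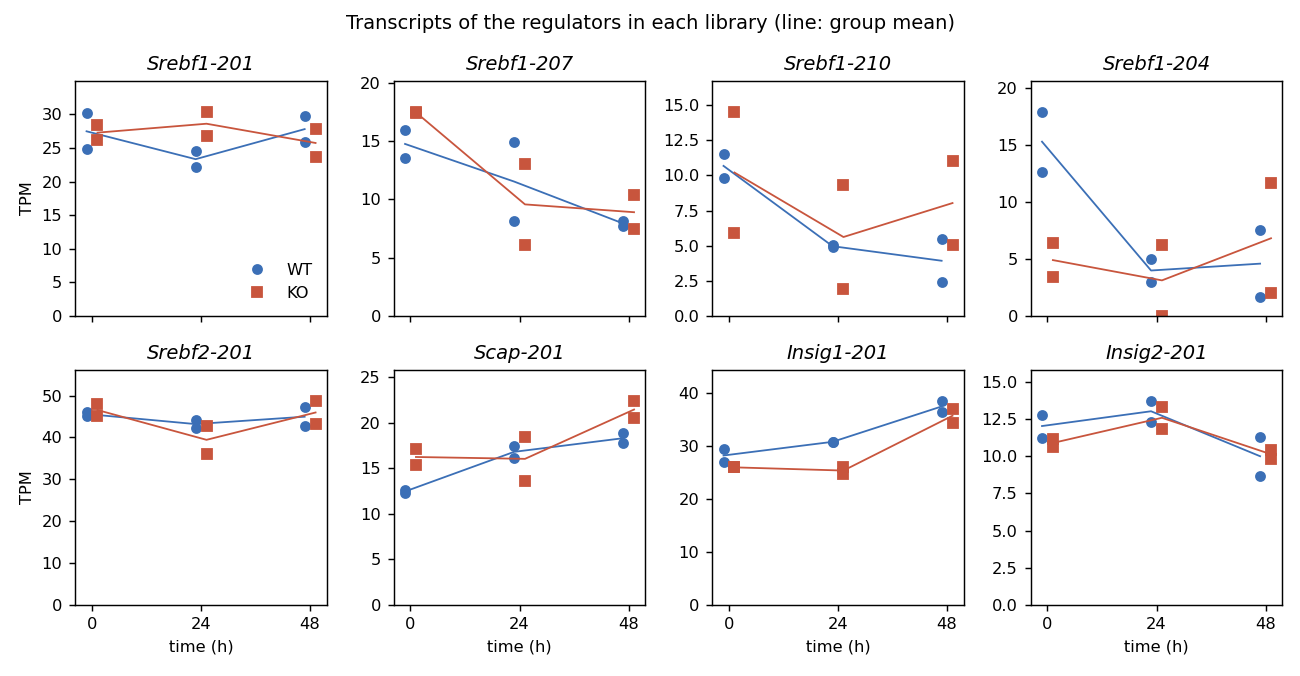
TPM (y axis, from 0) of 8 transcripts of the regulators against time in h (x axis) in each WT (blue circles) and KO (red squares) library, with lines through group means. *Srebf1-207* lies lower at 48 h than at 0 h in both genotypes, while *Srebf1-201* and *Srebf2-201* overlap between 0 h and 48 h.

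The fatty acid class split in 2 directions. By 48 h 3 of 11 genes rose and 3 fell in WT, and 4 rose and 3 fell in KO. *Fads2*, the delta-6 desaturase of polyunsaturated fatty acids, changed more than any other of the 35 genes in both genotypes. It went from 23.1 and 31.1 CPM at 0 h through 40.2 and 45.0 at 24 h to 71.6 and 68.8 at 48 h in WT, and through 31.6 and 29.9, 49.5 and 43.8, and 74.4 and 69.1 CPM in KO. The times did not overlap, and the rise was 2.59-fold in WT (adjusted p = 1.95e-07, edgeR) and 2.34-fold in KO (adjusted p = 7.21e-07, edgeR). *Fads1*, the delta-5 desaturase that acts after it, ranged from 62.4 to 92.8 CPM and was not called. The ratio of *Fads2* to *Fads1* in TPM thus went from 0.979 ± 0.203 to 2.25 ± 0.11 in WT and from 0.938 ± 0.038 to 2.10 ± 0.16 in KO (SD, n = 2).

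*Fasn*, which builds palmitate, rose from 853 and 753 CPM to 1120 and 1092 in WT and from 845 and 794 to 1148 and 1233 in KO. The rise was 1.38-fold (adjusted p = 5.63e-05) and 1.45-fold (adjusted p = 8.08e-06, edgeR). *Acaca*, acetyl-CoA carboxylase, which supplies malonyl-CoA to it, rose from 154.7 and 163.7 to 221.0 and 226.8 CPM in WT and from 164.9 and 167.9 to 224.3 and 219.6 in KO. *Acly*, the most abundant member, was called higher in KO alone, by 0.20, and lay between 642 and 770 CPM in all 12 libraries. Its counterpart *Acss2*, which makes acetyl-CoA from acetate and was the least abundant of the class in TPM, went the other way. *Acss2* fell from 26.5 and 24.6 CPM to 14.5 and 14.1 at 24 h and 12.6 and 13.5 at 48 h in WT. In KO it was at 32.4 and 24.8 CPM, then 26.4 and 14.9, then 15.6 and 13.97, with the 2 KO libraries at 24 h far apart. Its change to 48 h was -0.97 in WT (adjusted p = 0.0027) and -0.95 in KO (adjusted p = 0.00282, edgeR), and each call was lost in 2 of 16 alternatives.

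*Scd2*, which places the first double bond in saturated fatty acids, fell on the first day and stayed low. Its CPM values were 778 and 760, then 526 and 559, then 574 and 521 in WT, and 799 and 860, then 464 and 460, then 525 and 448 in KO. By 48 h it had fallen by 0.49 in WT (SE 0.075, adjusted p = 5.53e-05) and by 0.77 in KO (SE 0.075, adjusted p = 1.60e-07, edgeR). The KO fall by 24 h was larger than the WT fall by 0.34 (95% interval 0.12 to 0.56), with an unadjusted p of 0.0045 and an adjusted p of 0.837, and so was not called. *Scd1*, its paralogue, ranged from 82.5 to 116.4 CPM. *Scd2* held 88.5% ± 0.877 of the summed TPM of both genes in WT ESCs and 83.4% ± 0.711 at 48 h, and 86.5% ± 0.683 and 81.0% ± 1.54 in KO (SD, n = 2). Reads may be split between these close copies.

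*Elovl6*, the elongase of saturated C16 chains, fell between 24 h and 48 h in both genotypes, by 0.33 in WT (adjusted p = 0.00947) and 0.50 in KO (adjusted p = 0.000187, edgeR). It was at 202 and 198 CPM, 185 and 212, and 154 and 163 in WT and at 214 and 216, 243 and 239, and 168 and 174 in KO. *Elovl1*, an elongase of very long chains, was not called, at 11.9 to 19.2 CPM.

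The promoters of some of these genes are printed because the genes rose together, or, for *Srebf2*, because it did not. RefSeq promoter windows (GRCm38.p6, 250 bases before to 50 bases after a start) were matched by symbol for 28 of the 35 genes, with 37 windows. Only the 250 bases before the start are shown, written 5′ to 3′ on the gene's strand, with capitals for matches to CCAAT, the box bound by NF-Y, and for matches to TCACNCCAC or its core CACNCCA, forms of the sterol regulatory element bound by SREBPs, on either strand.
*Hmgcs1*, chr13:119690101-119690350, plus strand: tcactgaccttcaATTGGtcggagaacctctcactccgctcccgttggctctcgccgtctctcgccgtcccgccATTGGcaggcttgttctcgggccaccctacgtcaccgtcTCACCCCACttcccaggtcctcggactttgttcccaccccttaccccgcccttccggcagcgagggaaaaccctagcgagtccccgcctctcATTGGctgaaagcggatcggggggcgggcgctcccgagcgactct
*Idi1*, chr13:8885356-8885605, plus strand: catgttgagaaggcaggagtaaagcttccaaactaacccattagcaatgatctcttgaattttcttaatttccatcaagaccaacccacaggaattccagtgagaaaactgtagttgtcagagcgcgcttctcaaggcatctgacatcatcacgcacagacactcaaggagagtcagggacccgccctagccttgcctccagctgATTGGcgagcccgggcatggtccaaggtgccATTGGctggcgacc
*Fasn*, chr11:120824548-120824797, minus strand: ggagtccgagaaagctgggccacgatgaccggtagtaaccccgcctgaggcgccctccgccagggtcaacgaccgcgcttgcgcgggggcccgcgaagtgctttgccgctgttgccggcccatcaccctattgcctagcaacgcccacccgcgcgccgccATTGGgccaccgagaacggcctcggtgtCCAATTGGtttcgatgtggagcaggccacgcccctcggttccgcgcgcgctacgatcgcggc
*Fads2*, chr19:10101504-10101753, minus strand: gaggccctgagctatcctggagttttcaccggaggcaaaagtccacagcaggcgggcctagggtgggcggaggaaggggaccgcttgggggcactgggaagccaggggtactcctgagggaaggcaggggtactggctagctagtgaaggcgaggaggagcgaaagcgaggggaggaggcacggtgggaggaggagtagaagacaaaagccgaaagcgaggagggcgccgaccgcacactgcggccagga
*Srebf2*, chr15:82147019-82147268, plus strand: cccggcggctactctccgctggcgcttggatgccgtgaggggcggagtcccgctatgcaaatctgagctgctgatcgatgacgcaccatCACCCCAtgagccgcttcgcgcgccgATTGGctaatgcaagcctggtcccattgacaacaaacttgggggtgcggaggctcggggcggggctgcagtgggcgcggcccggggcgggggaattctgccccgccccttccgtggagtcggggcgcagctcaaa

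*Hmgcs1* held TCACNCCAC at 137 bases before the start and CCAAT boxes at 237, 176 and 45 bases, counted to the left end of each match. *Srebf2* held the core CACNCCA at 161 bases and a CCAAT box at 135 bases before its start. *Idi1* had CCAAT boxes at 45 and 14 bases, *Fasn* had 3 within 90 bases, of which 2 overlap on opposite strands, and *Fads2* had no match to either motif in the bases shown. These positions count from RefSeq starts. The GENCODE M21 starts of *Fads2* (chr19:10101746), *Idi1* (chr13:8885501) and *Srebf2* (chr15:82147181) lie inside the bases shown. By GENCODE, most of the *Fads2* bases and both *Idi1* boxes therefore lie within the transcribed gene, and the bases before that *Fads2* start were mostly not searched. Over the whole 300-base windows CCAAT was found in 64.9% of the 37 member windows and in 37.4% of all 32851 windows. GGGCGG, the GC box of Sp1, was found in 75.7% of member windows and 35.7% of all windows, and CACGTG, an E-box, in 18.9% and 7.15%. TCACNCCAC was found in 1 member window and 1.24% of all windows, and CACNCCA, which it contains, in 21.6% and 18.4%. A match is a description of the letters, and the 7 genes without a window (*Sqle*, *Fdps*, *Fdft1*, *Stard4*, *Scd1*, *Scd2*, *Fads1*) were not searched.

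The other question of the design was whether loss of *Cidea* altered these genes. No member was called between KO and WT at 0 h, 24 h or 48 h (edgeR, adjusted p under 0.05), where 1.26%, 1.46% and 0.671% of all genes were called. At an unadjusted p under 0.05 there were 5, 6 and 1 members (14.3%, 17.1% and 2.86%), beside 10%, 12.5% and 7.75% of all genes. The 11 fatty acid genes held 3, 5 and 1 of these (27.3%, 45.5% and 9.09% of that class). The squalene and sterol genes held 1, 0 and 0, the regulation and transport genes 1, 1 and 0, and the mevalonate genes none. DESeq2 called 0, 1 and 0, the one being *Elovl6*, and limma on log2 TPM called none. In this fit of counts, at each time the 95% interval of all 35 genes lay within a 2-fold difference either way. That of 30, 32 and 30 genes lay within 1.5-fold. These bounds hold for this scale and all 12 libraries. At 24 h the log2 fold change of *Lss* was -0.74 with transcript lengths as offsets, and that of *Acss2* was 0.88 without KO 24 h replicate 2. No member was called for a difference between the genotypes in its change by 24 h (0.0115% of all genes) or by 48 h (0.0402%), with 1 and 3 members at an unadjusted p under 0.05 (2.86% and 8.57%, beside 5.91% and 5.75% of all genes) and none called by DESeq2 or limma.

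**Figure D5:**
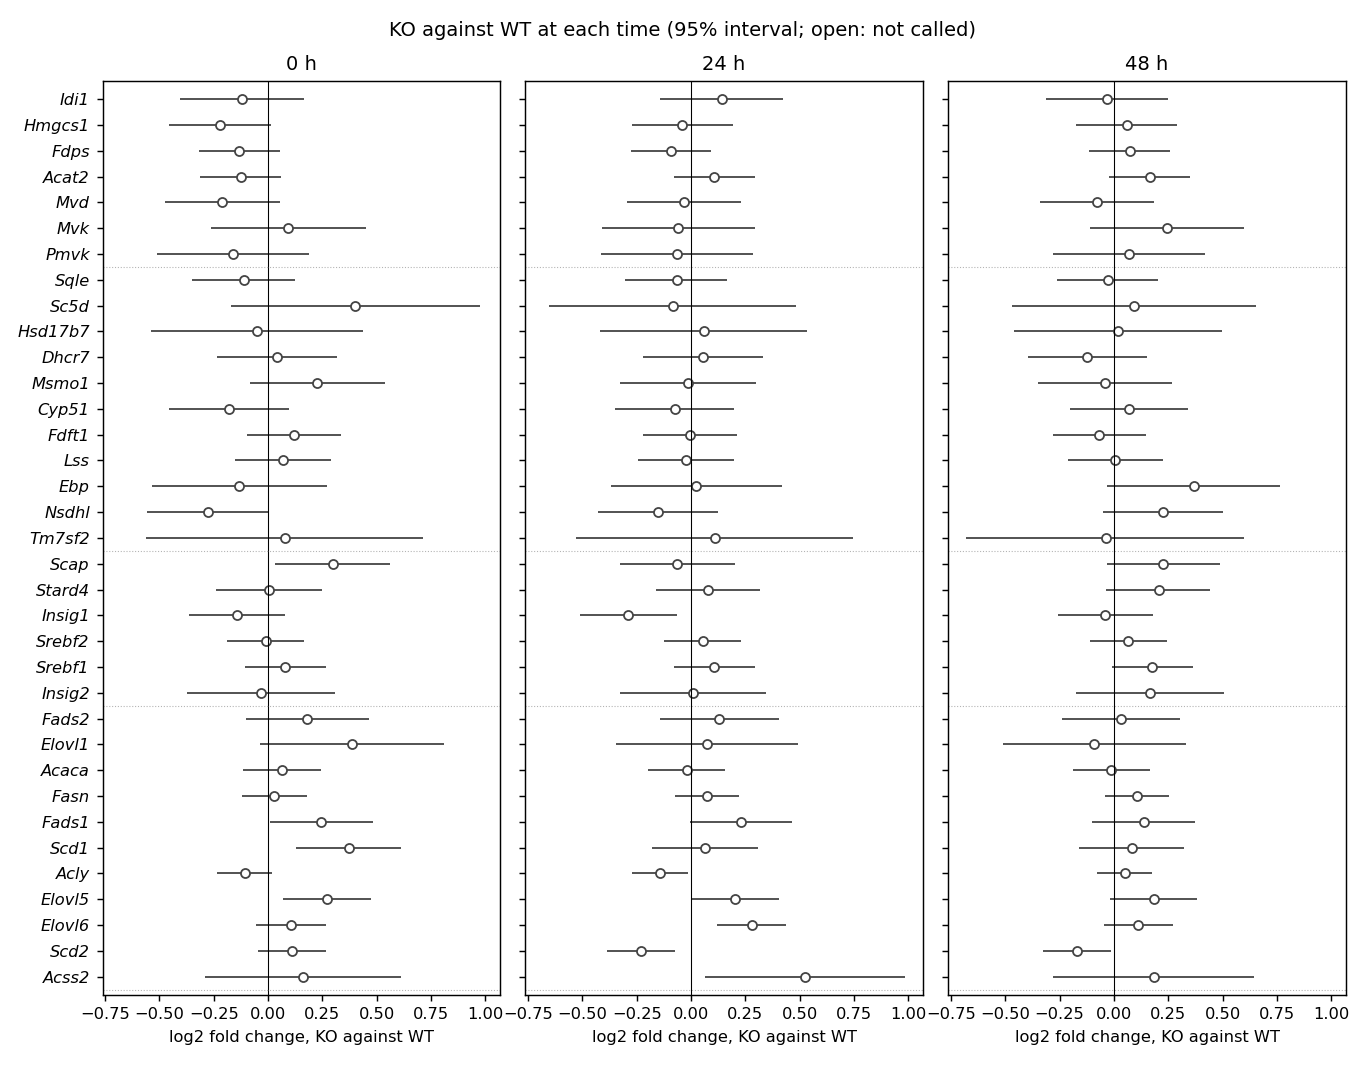
Log2 fold change of KO against WT (x axis) with its 95% interval for each of the 35 genes at 0 h, 24 h and 48 h, in the order of the plot of changes to 48 h. All symbols are open, as no gene was called at a single time, and *Elovl5* lies right of 0 at all 3 times.

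Over all times together 2 members were called, both elongases and both higher in KO, beside 5.03% of all genes called in either direction. At an unadjusted p under 0.05 there were 9 members (25.7%, edgeR), beside 16.8% of all genes. Of these members 6 were fatty acid genes and 3 were genes of regulation and transport. *Elovl5*, which lengthens polyunsaturated chains, was at 71.6 to 84.4 CPM in the 6 WT libraries and 81.4 to 96.0 in the 6 KO libraries, and at each time both KO values lay above both WT values. It was 1.16-fold higher (log2 fold change 0.22, SE 0.056, adjusted p = 0.0255, edgeR), and the call was lost in 12 of 23 alternatives, with values from 0.18 to 0.26. *Elovl6* was 1.12-fold higher (0.17, SE 0.044, adjusted p = 0.0324, edgeR), again with both KO values above both WT values at each time, and its call was lost in 14 of 23 alternatives. *Fads1* was at 0.20 and missed the threshold (adjusted p = 0.0827, edgeR). With KO 24 h replicate 1 left out 3 members were called over all times, *Scap* besides these 2 elongases, and with KO 24 h replicate 2 left out 4 were called, adding *Acss2* and *Fads1*. Of all genes, 5.99% and 13.4% were called in these settings. At 24 h alone, leaving out replicate 2, so that replicate 1 stood for KO, gave calls for *Acss2* (0.88), *Elovl6* (0.30) and *Fads1* (0.38), where 12.4% of all genes were called, and leaving out replicate 1 gave none. *Scd1* in ESCs had the smallest adjusted p at 0 h, at 114 and 113 CPM in KO against 83.7 and 92.3 in WT (log2 fold change 0.37, adjusted p = 0.178, edgeR).

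Genes around the pathway were counted from lists of 53 genes in all. Over all genes tested 11.1% rose and 12.5% fell by 48 h in WT, and 12.1% rose and 12.8% fell in KO. A count of 1 in a list of 8 is near these shares. Of 7 further genes of sterol transport, storage and related steps, 1 rose and 1 fell by 48 h in WT, and 2 rose and 1 fell in KO. Of 8 genes of the LXR pathway and cholesterol efflux, 0 rose and 2 fell in each genotype. *Abca1*, the cholesterol exporter induced by LXR, stood out among them, at 3.83 and 3.79 TPM in WT ESCs, 1.93 and 2.99 at 24 h and 0.954 and 0.909 at 48 h. In KO it was at 4.37 and 4.50, 0.936 and 2.14, and 0.428 and 0.545 TPM. It fell by 2.05 in WT (adjusted p = 2.87e-06) and by 3.21 in KO (adjusted p = 1.14e-08, edgeR), and the difference between these falls was not called. Of 8 genes that process or retain the SREBP precursors, 1 rose and 4 fell in WT, and 1 rose and 1 fell in KO. The isoprenoid branch of 8 genes had 1 rise and 1 fall in WT and 0 and 1 in KO.

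Of 12 other elongation and desaturation genes tested, 2 rose and 2 fell in WT and 2 rose and 1 fell in KO. The shares over all genes are those given above. *Elovl2*, an elongase of polyunsaturated chains that works in series with *Fads2* and *Elovl5*, rose from 1.71 and 2.15 TPM to 4.62 and 3.88 in WT and from 1.68 and 2.34 to 3.72 and 4.31 in KO, by 2.17-fold and 2.08-fold (adjusted p = 0.00504 and 0.00717, edgeR). *Elovl7* fell, by 1.61 in WT and 1.90 in KO. Of 9 genes of carbon and NADPH supply 3 rose and 1 fell in each genotype. *Mid1ip1*, a partner of acetyl-CoA carboxylase, rose 2.12-fold in WT and 2.15-fold in KO. *Pgd*, an NADPH-producing enzyme of the pentose phosphate pathway, was the list gene called between genotypes at 0 h. It was at 138.6 and 132.6 TPM in WT ESCs and 101.8 and 94.4 in KO ESCs (log2 fold change -0.51, adjusted p = 0.00158, edgeR), and at 48 h at 179 and 196 against 179 and 181 TPM.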

How the data were processed

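Per the labels, mRNA was prepared with a stranded kit from 12 samples, 2 per genotype and time, and the submitters' processing notes name FastQC, Trimmomatic 0.33, kallisto 0.43.1 and the builds mm10 and GRCm38. The authors deposited, per sample, kallisto's estimated counts and TPM for each of 115270 transcripts, of which 113580 (98.5%) matched GENCODE M21. Kallisto splits reads among similar transcripts by probability, so values of paralogues and isoforms are estimates.

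Estimated counts were summed per gene, rounded and tested with edgeR 4.0.16 (TMM, robust quasi-likelihood, filterByExpr) in one fit of 6 group means, with Benjamini-Hochberg adjustment over 17424 genes. The labels do not state separate cultures. The paper describes the 2 samples of each genotype and time as independent biological replicates, without saying how they were set up. The p-values measure the spread between these libraries. Within each group the 2 libraries differed beyond counting error (chi-square 11.0 to 32.5 per degree of freedom). In simulated data edgeR recovered 43.5% of 200 genes changed 2-fold between WT 48 h and 0 h. TPM served for levels between genes.

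The 35 genes and the other lists were chosen with earlier results of these data known. Values in each library are given for genes called between genotypes, among the 3 largest rises or falls of their class, regulating the pathway or most or least abundant in it; other genes may be named with fewer values, and listed genes outside the 35 only for a called log2 change of at least 1 or a genotype call. Not every gene that qualified is named, and some genes of the surrounding sterol list are not reported here and are left out of its counts. Alternatives were DESeq2 1.42.0, its size factors, no filter, at least 10 counts in every library, transcript lengths as offsets, limma 3.58.1 on log2(TPM + 1) and log2(TPM + 0.1), only the groups compared, a replicate block, genes detected as a covariate and leaving out each library. Counting protein-coding transcripts only, or the leading transcript only, was added after seeing the data. Promoters came from RefSeq.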

Additional observations from a re-analysis of the deposited data

How the results depend on the processing

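The call under 0.05 held for *Hmgcs1*, *Idi1*, *Fdps*, *Sqle*, *Fasn*, *Fads2* and *Scd2* at 48 h against 0 h in both genotypes, under each of 16 alternatives. Counts of members called that moved by more than 1.5 times were as follows. With transcript lengths as offsets they were 2 for WT 48 h against 24 h, 11 for WT 48 h against 0 h, 6 for KO 48 h against 24 h, 11 for KO 48 h against 0 h, 1 for KO against WT at 24 h and 0 over all times. Of all genes, 3.24%, 14.3%, 4.72%, 15.3%, 0.367% and 1.69% were then called, against 8.14%, 23.6%, 9.93%, 25.0%, 1.46% and 5.03% in the main fit. With limma on log2(TPM + 1) they were 1, 10, 1 and 8 for those 4 comparisons of time, 7 for KO 24 h against 0 h and 0 over all times. The shares of all genes were 2.73%, 15.1%, 4.51%, 15.0%, 9.28% and 1.08%. With limma on log2(TPM + 0.1) they were 1, 9, 0, 8, 7 and 0 in the same order, beside 2.41%, 14.3%, 4.03%, 14.4%, 9.17% and 1.08% of all genes. With the leading transcript only they were 4 for WT 48 h against 24 h, 6 for KO 24 h against 0 h, 4 for KO 48 h against 24 h and 0 over all times. The shares of all genes were 2.02%, 7.32%, 2.84% and 0.945%. Protein-coding transcripts only gave 1 over all times, beside 3.97% of all genes. No filter gave 1 at 0 h and DESeq2 gave 1 at 24 h for KO against WT, beside 1.56% and 1.90% of all genes. Leaving out 1 library gave 4 to 6 (WT) and 4 to 11 (KO) for 24 h against 0 h, 3 to 11 and 5 to 13 for 48 h against 24 h, 12 to 16 and 13 to 15 for 48 h against 0 h, 0 to 3 for KO against WT at 24 h, 0 to 4 over all times and 0 to 1 for the genotype difference at 24 h. The cause was not tested, beyond fewer samples in the last and other transcripts counted in the transcript settings.

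Directions that turned were those of *Scap* in WT at 48 h against 0 h (-0.11 with offsets, -0.015 and -0.013 with limma at pseudocounts of 1 and 0.1), *Scap* in KO at 48 h against 24 h (-0.057, -0.14 and -0.14), *Acaca* in KO at 48 h against 24 h (-0.041, -0.12 and -0.13), and *Srebf1* with the leading transcript only (0.018 in WT at 48 h, 0.04 in KO at 24 h against 0 h). Class sums as log2 ratios at 48 h against 0 h moved with summed CPM to 0.54 (WT) and 0.74 (KO) for mevalonate genes, 0.076 for regulation and transport in WT, and 0.086 (WT) and 0.07 (KO) for fatty acid genes. With the leading transcript only they were 0.52 for sterol genes in KO, 0.16 for regulation and transport in WT and -0.011 for fatty acid genes in KO. Leaving out 1 library gave -0.21 to 0.011 in WT and -0.016 to 0.14 in KO for regulation and transport, crossing 0 (0.011 without WT 0 h replicate 1, -0.003 and -0.016 without replicate 2 of KO 0 h and KO 48 h). Shares of estimated counts in place of TPM, in WT and KO, were 62.7% and 57.2% at 0 h and 75.3% and 62.8% at 48 h for *Srebf1-201* (TPM 31.2%, 33.5%, 48.1% and 37.0%), 93.7%, 96.4%, 97.1% and 98.9% for *Scap-201*, and 91.1% and 82.5% at 0 h and 89.6% in KO at 48 h for *Insig2-201*.

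Same-numbered WT and KO libraries of one time did not deviate together (correlations 0.003, 0.051 and -0.009 at 0, 24 and 48 h). This check compared genotypes only, so whether the numbers link libraries across times was not tested. With the replicate block 20 members were called in WT and 20 in KO at 48 h against 0 h, and the block moved no count by over 1.5 times. Depth limited little here, as the lowest member had over 200 counts in each library.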

Other observations

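Among the 53 genes of the surrounding lists, 9 were called between KO and WT over all times (edgeR, adjusted p under 0.05), 4 higher and 5 lower in KO, beside 5.03% of all genes. *Pdss2*, a subunit that makes the coenzyme Q side chain, was at 6.66 to 7.76 TPM in the 6 WT libraries and 3.33 to 6.59 in the 6 KO libraries (log2 fold change -0.80, adjusted p = 0.00482, edgeR). *Npc2*, which carries cholesterol out of the lysosome, was lower by 0.34 on the log2 scale, and *Mid1ip1* and *Pgd* by 0.42 and 0.21. *Fads6*, a desaturase-like gene of low level, was higher by 0.66 over all times and was the 1 list gene called at 24 h (0.92, adjusted p = 0.045, edgeR). *Elovl4*, an elongase of very long chains, was higher by 0.38. *Erlin2*, a protein of the endoplasmic reticulum membrane, was higher by 0.26. In counts *Slc25a1*, the mitochondrial citrate carrier, was lower by 0.22 and *Mbtps1*, the site-1 protease that cuts SREBP precursors, higher by 0.16. On the TPM scale these directions did not hold at every time, as the group means of *Slc25a1* were 107, 111 and 121 TPM in WT and 96.4, 124 and 122 in KO at 0, 24 and 48 h, and those of *Mbtps1* were 158, 161 and 142 in WT and 169, 161 and 137 in KO.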
